A study of Rattus norvegicus with 28 samples.

Results

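The 67 rows described here are the protein-coding rows of a rat striatum expression table whose names begin with Hnrnp, Srsf, Sf3a, Sf3b, Snrp or Prpf, out of 39538 rows in all and 22940 protein-coding ones. They comprise 19 Hnrnp, 13 Srsf, 3 Sf3a, 6 Sf3b, 13 Snrp and 13 Prpf rows, and stand for 66 genes because Srsf8 has 2 rows. The rule goes by biotype and name and uses no measured value, but it was chosen with earlier results of these data known. The study sequenced striatal RNA of male rats in 28 libraries. Wild-type (wt) rats and transgenic (TG) rats labelled {delta}ETorA, a model of the inherited movement disorder DYT-TOR1A dystonia, were either naive or had had the right sciatic nerve crushed for 30 s, and the labels give 12 weeks after injury for all 4 groups. Naive rats gave 8 libraries of each genotype and crushed rats 6 of each. The sources used here give neither the age of the rats nor the promoter of the transgene.

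Pre-mRNA splicing is carried out by the spliceosome, which assembles on each intron from small nuclear ribonucleoproteins. The Snrp genes encode the Sm core and other proteins of these particles, the Sf3a and Sf3b genes the complexes of the U2 particle that settle on the branch site, and the Prpf genes factors such as Prpf8, which lies at the catalytic centre. SR proteins (Srsf) mostly favour the use of an exon by binding sequences within it, while hnRNP proteins (Hnrnp) coat nascent transcripts and often oppose SR proteins. Many SR protein and hnRNP genes limit their own level through exons that send their transcripts to nonsense-mediated decay. Neurons use this balance widely, since brain transcripts are spliced in many forms.

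Levels are given as RPM, the reads of a gene per 1000000 reads assigned to genes. The libraries held 29151455 to 38407359 assigned reads. Human TOR1A, which has a row of its own, was at 102 to 144 RPM in the TG and at most 0.972 RPM in the wt libraries. The spiny projection neuron markers, all 17 of which were tested, summed to between 8290 and 16600 RPM in every library. Of the libraries, 5 exceeded 20 RPM of Slc17a7, a marker of cortical excitatory neurons (3 wt naive, 1 TG naive and 1 TG crush). TG crush replicate 223 had the highest mitochondrial share of reads, 17.4%, against 9.66 to 14.9% in the others. Each library bears a number of its own, and nothing in the labels speaks of separate animals beyond that, so the p-values measure the spread between libraries.

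Of the 67 rows, 64 had at least 0.5 RPM in at least 6 libraries and were tested. The other 3 were Snrpn and both Srsf8 rows. Snrpn, which encodes SmN, the Sm core protein of neurons, was listed at 0 reads in every library. Its span on chromosome 1 (195074328 to 195096460, Rnor_6.0) lies within that of Snurf on the same strand, and Snurf held 9 to 48 reads per library, so transcripts of the 2 genes cannot be told apart in this table. The 0 therefore sets no upper limit on the level of Snrpn. Of the Srsf8 rows, 1 was at 0 and the other reached at most 0.0313 RPM.

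The members together took 0.405 to 0.464% of the assigned reads in any library. Group medians of this share were 0.445% in wt naive, 0.445% in wt crush, 0.431% in TG naive and 0.437% in TG crush rats, with overlapping ranges. Within a group, the SD of a member on the log2 scale had a median of 0.106, against 0.162 over all 18222 genes tested, and 61 of 64 members lay below the latter. At 5 RPM or more the medians were closer, 0.106 for 62 members and 0.136 for 12680 genes. The steadiest members were Prpf18, a second-step splicing factor, with an SD of 0.056, Hnrnpul1 with 0.066 and Hnrnpl with 0.071. The most variable were Srsf12 with 0.291, Prpf39, a U1-associated factor, with 0.186, and the Sm protein gene Snrpg with 0.172. Srsf12 averaged 3.73 RPM and Snrpg 4.93 RPM, levels at which read counting alone gives an SD of 0.128 and 0.111. Prpf39, at 17.8 RPM, has a counting SD of only 0.059.

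**Figure D1:**
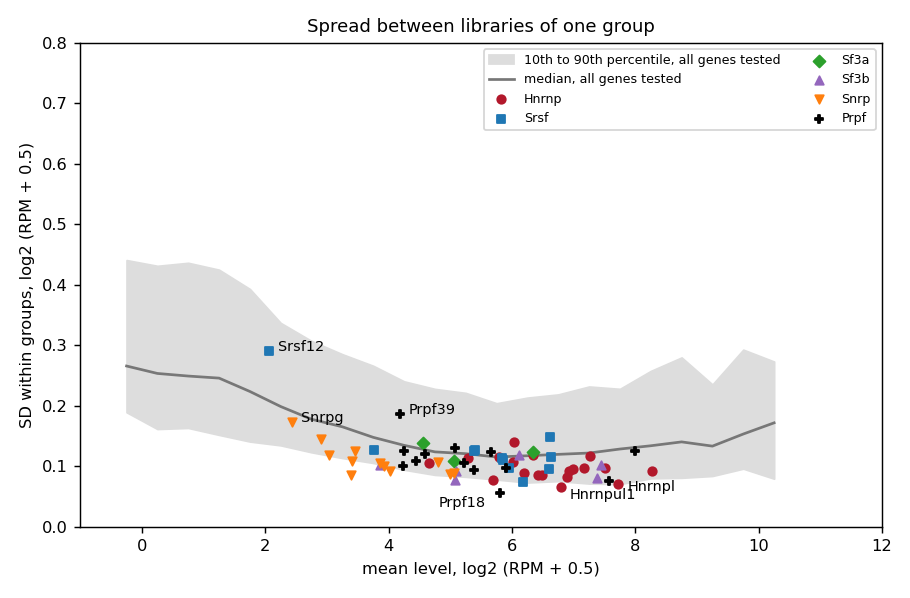
SD within groups against mean level, both on the log2 (RPM + 0.5) scale, for the 64 members tested (symbols by family), with the median (line) and the 10th to 90th percentile (grey band) of all genes tested in bins of level. Srsf12, Prpf39 and Snrpg stand highest, and Prpf18, Hnrnpul1 and Hnrnpl lowest.

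Libraries of a group differed from one another in many members at once. TG crush replicate 223 was the lowest of its group in 27 of 64 members and wt crush replicate 203, whose mitochondrial share of 14.9% was the highest of its group, in 33. TG crush replicate 219 and TG naive replicate 194 were each the highest of their group in 28 members, and they had the lowest mitochondrial shares of their groups, 9.73 and 9.66%. The naive groups did not all lie that way: wt naive replicate 195 had the lowest share of its group (10.8%) and was the lowest in 16 members and the highest in 3, and TG naive replicate 187 had the highest share of its group (14.4%) and was the lowest in 4. TG crush replicate 220, with 63.3 RPM of Slc17a7, was the highest of its group in 7 of the 11 Srsf genes tested, and TG crush replicate 226 the lowest in 7. In TG crush replicate 223 the oligodendrocyte and myelin markers summed to 35100 RPM, the highest of its group, and the spiny neuron markers to 9380 RPM, the lowest. The part of the mitochondrial share, of the mix of cells and of tissue outside the striatum in these values was not tested. The exceptions were the fits without those libraries and a fit with the level of spiny neuron markers as covariate.

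Between naive TG and naive wt rats no member was called. None of the 64 passed an adjusted p of 0.05 in limma (Benjamini-Hochberg over all genes tested), where 0.0329% of all genes were called. At an unadjusted p under 0.05 there were 8 of 64 members, 12.5%, against 4.98% of all genes. The median log2 difference was -0.03 for the members and -0.01 for all genes, and the 95% intervals of all 64 members lay between -0.36 and 0.26.

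The lowest p belonged to Snrpa, which encodes the A protein of the U1 particle. It ran from 13.7 to 17.1 RPM with a median of 15.2 in wt naive and from 11.7 to 15.9 with a median of 13.8 in TG naive libraries, so that the groups overlapped widely (log2 difference -0.13, SE 0.05, limma adjusted p = 0.947). Hnrnpd, an AU-rich element binding protein gene, had medians of 76.4 RPM in wt and 69.3 RPM in TG naive libraries (log2 difference -0.11, SE 0.05, limma adjusted p = 0.952). Hnrnpc leaned the other way, with medians of 86.0 and 90.2 RPM (log2 difference 0.11, SE 0.05, limma adjusted p = 0.952).

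Genotype was compared a second time in rats with the injury, and again no member was called, with 0.00549% of all genes called. Here 11 of 64 members, 17.2%, had an unadjusted p under 0.05, against 8.06% of all genes. The families did not lie alike around 0. Of the 11 Srsf genes tested, 9 were above 0, with a median log2 difference of 0.13, and 6 had an unadjusted p under 0.05, while all 6 Sf3b and all 3 Sf3a genes and 14 of 19 Hnrnp genes were below 0. None of these passed the adjusted test, and the median over all genes was 0.00.

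Srsf3, the smallest SR protein, had the lowest p. It was at 64.6 to 73.2 RPM (median 68.6) in wt crush and at 72.2 to 85.2 RPM (median 78.0) in TG crush libraries. In 5 of the 6 TG crush libraries it exceeded every wt crush library (log2 difference 0.19, SE 0.05, 95% interval 0.09 to 0.28, limma adjusted p = 0.32). Prpf39 had medians of 15.8 and 19.5 RPM, and 5 of 6 TG crush libraries lay above all wt crush libraries (log2 difference 0.33, SE 0.10, 95% interval 0.11 to 0.54, limma adjusted p = 0.58). Srsf1, the founding SR protein, which also acts in mRNA export and translation, had medians of 95.1 and 103 RPM (log2 difference 0.18, SE 0.07, limma adjusted p = 0.606).

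The values of the Srsf genes rested in part on 1 library. Without TG crush replicate 220, 2 rather than 6 of the 11 had an unadjusted p under 0.05, and their median difference was 0.09 rather than 0.13. Srsf3 then differed by 0.16, Srsf1 by 0.12 and Prpf39 by 0.26. Without the 5 libraries over 20 RPM of Slc17a7, which include that one, the numbers were again 2 and 0.09. The Srsf genes did not all lie the same way. Srsf7 differed by 0.15 (SE 0.07, limma adjusted p = 0.613), Srsf2, which binds exonic enhancers, by 0.11 (SE 0.06, limma adjusted p = 0.633) and Srsf5 by -0.08 (SE 0.08, limma adjusted p = 0.809).

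**Figure D2:**
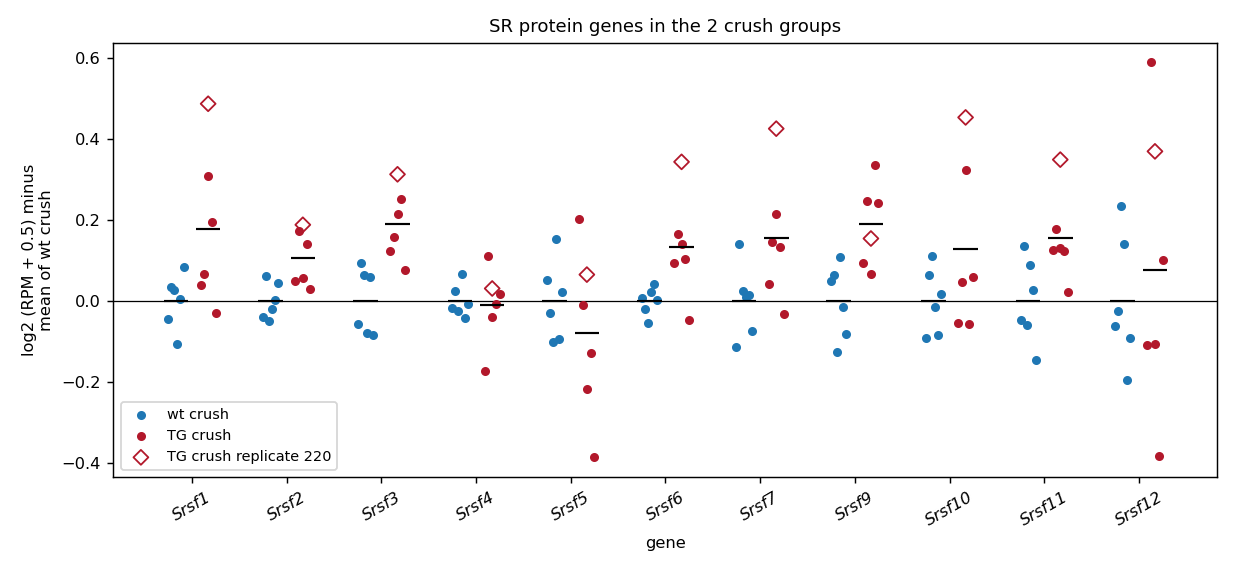
Level of the 11 tested SR protein genes in each wt crush (blue) and TG crush (red) library, as log2 (RPM + 0.5) minus the mean of the wt crush group, with black bars at the group means. The open diamond is TG crush replicate 220, which is the highest of its group in 7 of the 11 genes.

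Averaged over naive and crush rats, no member was called higher or lower in TG than in wt rats either, with 0.0384% of all genes called, 0.022% of them higher and 0.0165% lower. An unadjusted p under 0.05 was found for 8 of 64 members, 12.5%, against 5.09% of all genes. The 95% intervals of the 64 members ran from -0.23 to 0.25. The lowest p belonged to Srsf3 (log2 difference 0.10, SE 0.03, limma adjusted p = 0.812), followed by Srsf1 (0.12, SE 0.04, limma adjusted p = 0.913).

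Sciatic nerve crush left the members of wt rats without a call, 0 of 64, where 0.159% of all genes were called. An unadjusted p under 0.05 was found for 5 members, 7.81%, against 20.8% of all genes, and the 95% intervals lay between -0.44 and 0.27. Srsf9, which has short RS repeats and acts on many of the same exons as Srsf1, came nearest. It was at 12.6 to 16.1 RPM (median 13.4) in wt naive and at 10.6 to 12.6 RPM (median 11.8) in wt crush libraries, and each of the 6 crush libraries was below each naive library (log2 difference -0.26, SE 0.07, limma adjusted p = 0.0958). The highest crush library (12.577 RPM) and the lowest naive one (12.592 RPM) were nearly equal. Without wt naive replicate 196 the limma adjusted p of Srsf9 was 0.0442.

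Next came Hnrnph3, of the G-rich sequence binding H/F group, with medians of 56.5 RPM in naive and 50.1 RPM in crush libraries, 5 of 6 crush libraries lying below all naive ones (log2 difference -0.20, SE 0.06, limma adjusted p = 0.125). Prpf40b, a relative of the yeast U1 component Prp40, had medians of 43.7 and 39.4 RPM (log2 difference -0.14, SE 0.05, limma adjusted p = 0.158). As a family, 10 of 11 Srsf genes lay below 0 in this comparison, as did 10719 of all 18222 genes tested. The Srsf genes had a median log2 difference of -0.07 against -0.03 over all genes.

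In TG rats 2 hnRNP genes, Hnrnpc and Hnrnpm, fell after the crush and no member rose. They are 3.12% of the 64 members, where 3.08% of all genes were called, 1.08% higher and 2.0% lower, so the share among the members is close to that of the whole table. Hnrnpc encodes an hnRNP that binds uridine tracts and keeps cryptic exons out of mature transcripts. Hnrnpm encodes a protein that binds GU-rich sequences and acts mainly as a repressor of exons.

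Hnrnpc lies on chromosome 15 (28486605 to 28517353, minus strand, Rnor_6.0). In TG rats it was at 83.5 to 99.3 RPM (median 90.2) in naive and at 67.9 to 86.2 RPM (median 79.5) in crush libraries. The 5 lowest crush libraries were below every naive library and the highest one lay within the naive range (log2 difference -0.22, SE 0.05, 95% interval -0.32 to -0.12, limma adjusted p = 0.0123). Hnrnpm lies on chromosome 7 (18516253 to 18554536, minus strand, Rnor_6.0). It was at 90.9 to 105 RPM (median 95.0) in TG naive and at 74.9 to 87.5 RPM (median 84.7) in TG crush libraries, so that the groups did not overlap (log2 difference -0.21, SE 0.05, 95% interval -0.31 to -0.11, limma adjusted p = 0.0158).

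Both calls rest on a spread shared by the 4 groups. When the 2 TG groups were fitted alone, the differences stayed at -0.22 and -0.21 but the adjusted p-values were 0.0809 and 0.0683, and the number of genes called in the whole table fell from 562 to 123. In wt rats the same genes had differences of -0.02 (SE 0.05) for Hnrnpc, which became 0.01 under median-of-ratios scaling, and -0.05 (SE 0.05) for Hnrnpm, neither passing the test. The difference between genotypes was itself tested and did not pass, at -0.19 (SE 0.07, limma adjusted p = 0.551) and -0.16 (SE 0.07, limma adjusted p = 0.632), so these data do not show that the 2 genes respond in TG rats alone. In wt rats Hnrnpc ran from 77.6 to 90.1 RPM (median 86.0) in naive and from 78.2 to 88.9 RPM (median 81.4) in crush libraries, and Hnrnpm from 76.5 to 97.4 RPM (median 91.0) and from 81.8 to 92.4 RPM (median 83.9), so that the wt groups overlapped for both genes. Of the cell type markers, 1 of 11 microglial (C1qb, -0.36) and 3 of 9 endothelial and pericyte genes (Cd93, -1.09, Pecam1, -0.37, and Tek, -0.29) also fell after the crush in TG rats. The endothelial and pericyte markers summed to 448 to 547 RPM in TG naive and 378 to 550 RPM in TG crush libraries, the microglial ones to 469 to 644 and 439 to 665 RPM, and their part in the 2 hnRNP values was not tested.

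The RefSeq promoters of the 2 genes that fell together, and of Srsf3 as the member nearest to a call in the opposite direction, are shown with the letters of common promoter motifs, spelled out after them, in capitals (GRCr8, 250 bases before to 50 after the start). The windows are chr15:27282666-27282965 (minus strand) for Hnrnpc, chr7:15178822-15179121 (minus strand) for Hnrnpm and chr20:7093335-7093634 (plus strand) for Srsf3.
Hnrnpc: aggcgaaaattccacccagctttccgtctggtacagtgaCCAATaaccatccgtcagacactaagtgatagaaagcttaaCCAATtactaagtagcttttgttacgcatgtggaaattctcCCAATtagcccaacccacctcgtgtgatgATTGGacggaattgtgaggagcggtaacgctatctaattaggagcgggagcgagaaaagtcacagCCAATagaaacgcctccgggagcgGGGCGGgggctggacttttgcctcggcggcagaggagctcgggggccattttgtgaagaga
Hnrnpm: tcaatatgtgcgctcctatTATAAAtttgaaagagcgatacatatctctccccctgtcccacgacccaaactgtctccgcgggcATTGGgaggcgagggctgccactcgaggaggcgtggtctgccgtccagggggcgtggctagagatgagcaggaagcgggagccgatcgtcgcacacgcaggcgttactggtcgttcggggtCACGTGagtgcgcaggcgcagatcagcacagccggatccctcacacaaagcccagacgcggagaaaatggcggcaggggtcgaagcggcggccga
Srsf3: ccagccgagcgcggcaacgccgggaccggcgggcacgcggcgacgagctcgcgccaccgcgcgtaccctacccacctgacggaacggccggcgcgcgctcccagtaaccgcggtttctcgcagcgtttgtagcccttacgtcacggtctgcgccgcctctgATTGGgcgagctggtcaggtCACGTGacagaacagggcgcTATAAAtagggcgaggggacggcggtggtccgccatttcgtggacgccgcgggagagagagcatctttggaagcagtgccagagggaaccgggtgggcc

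The Hnrnpc window holds 5 CCAAT boxes on either strand and 1 GC box (GGGCGG). The Hnrnpm and Srsf3 windows each hold 1 CCAAT box, 1 TATAAA and 1 E-box (CACGTG). Promoters were found for 62 of the 66 genes. On either strand, CCGGAA, the ETS core, was in 48.4% of them against 15.8% of all 27457 promoters, CCAAT in 56.5% against 37.7%, GGGCGG in 54.8% against 34.9%, and CACGTG in 14.5% against 6.65%. TATAAA was in 9.7% against 14.3%, the palindromic NRF1 motif in 3.2% against 0.932% and AAGATGGCG (YY1) in 3.2% against 1.93%. No motif contains another. The members' windows had a median GC content of 58.8% against 52.3%, so the shares compare windows of different composition, and a match of letters is no bound site.

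Copies of both genes bear on how these values can be read. LOC100911576 on chromosome 14 (88543630 to 88574207) carried 98.7 to 99.2% as many reads as Hnrnpc in every library and gave the same difference, -0.22 (limma adjusted p = 0.0123), so the Hnrnpc value belongs to both rows together. LOC680517 on chromosome X (118770080 to 118771112), a pseudogene of Hnrnpm, held 0.737 to 1.55% as many reads as Hnrnpm. Its median was 1.15 RPM in TG naive and 0.747 RPM in TG crush libraries (log2 difference -0.39, SE 0.09, limma adjusted p = 0.0208). Whether those reads come from the pseudogene or from Hnrnpm was not tested. Hnrnpm also overlaps Pram1 on the opposite strand, as 11 other tested members overlap a gene there, and no source used here says whether reads were counted by strand.

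**Figure D3:**
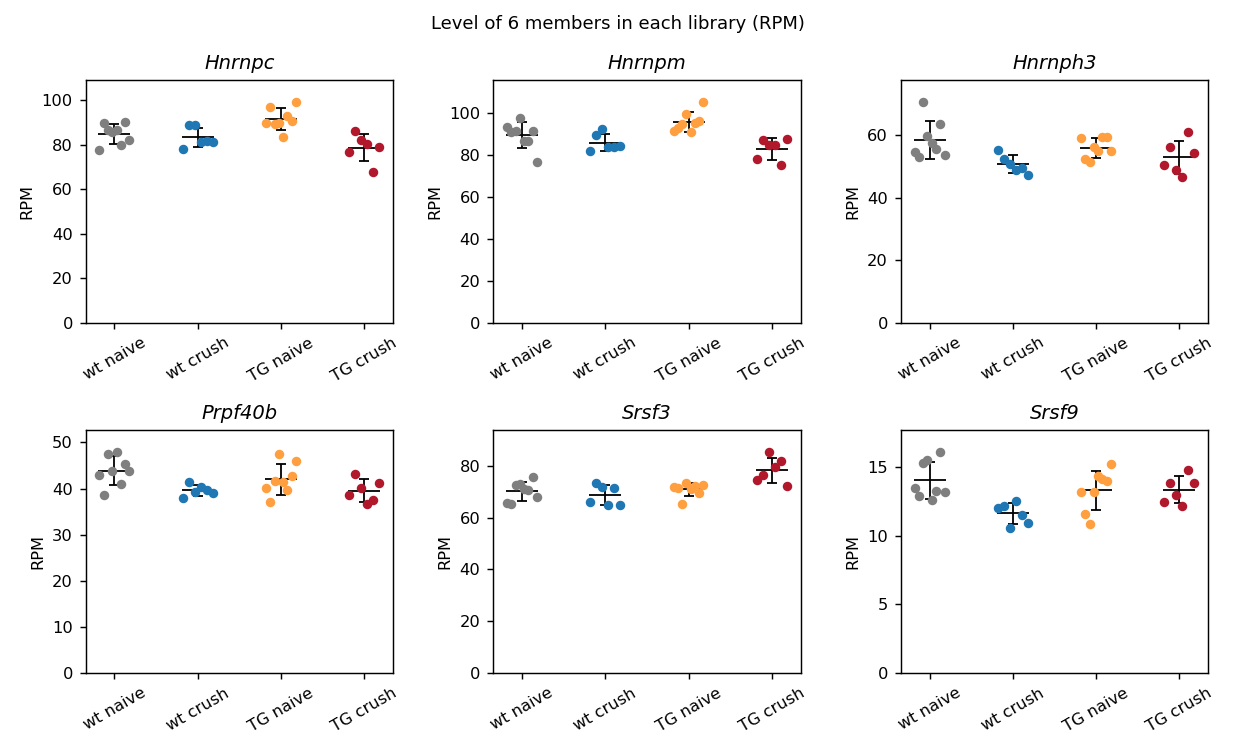
Level in RPM of 6 members in each library by group, with the group mean and SD in black and each axis starting at 0. Hnrnpm in TG crush libraries (74.9 to 87.5 RPM) lies below all TG naive libraries (90.9 to 105 RPM), and Srsf9 in wt crush libraries lies below all wt naive libraries.

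Other members in TG rats showed values without a call. Srsf3 was at 65.0 to 73.5 RPM (median 71.6) in TG naive and at 72.2 to 85.2 RPM (median 78.0) in TG crush libraries, 5 of 6 crush libraries lying above all naive ones (log2 difference 0.14, SE 0.04, limma adjusted p = 0.0679). It passed under median-of-ratios scaling (adjusted p = 0.0362), with array weights (0.0479) and with a spiny neuron covariate, the markers' mean log2 level (0.0371). It also passed without TG crush replicate 226 (adjusted p = 0.0284), as Prpf39 did (0.24 with all libraries, adjusted p = 0.154, and 0.0289 without that library). Snrpb, which encodes the SmB core protein, had medians of 33.5 and 30.4 RPM (log2 difference -0.14, SE 0.05, limma adjusted p = 0.114).

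Hnrnpa1, Hnrnpa2b1, Hnrnpk, Hnrnpu, Sf3b1 and Prpf8, described for their role, passed the test in no comparison of the main fit. For the crush averaged over both genotypes, Hnrnpk passed with array weights and without TG crush replicate 226. The A/B hnRNP genes Hnrnpa1 and Hnrnpa2b1, whose proteins oppose SR proteins at many exons, differed after the crush by 0.09 (SE 0.07) and -0.09 (SE 0.05) in TG rats and by -0.10 (SE 0.07) and 0.00 (SE 0.05) in wt rats. Hnrnpk, a poly-C binding protein, differed by 0.12 (SE 0.05, limma adjusted p = 0.201) in TG and by 0.04 (SE 0.05) in wt rats. Hnrnpu, a nuclear scaffold protein, differed by 0.06 (SE 0.05) in both. Sf3b1, the branch site protein, was at 141 to 195 RPM over all libraries and differed by 0.09 (SE 0.06) in TG rats, and Prpf8 differed by -0.01 (SE 0.07) in TG rats. In wt rats Prpf8 ran from 228 to 278 RPM (median 261) in naive and from 249 to 312 RPM (median 277) in crush libraries. The medians of Sf3b1 in wt rats were 178 RPM in naive and 180 RPM in crush libraries. Copies limit 2 further members: Hnrnpab and LOC103689931 had read counts equal in all but 6 of 28 libraries, and Snrpd2l, a member row that RefSeq now lists as a pseudogene, held 29.7 to 43.8% as many reads as Snrpd2.

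Averaged over both genotypes, 4 of 64 members fell after the crush and none rose, against 11.4% of all genes called, 3.03% higher and 8.42% lower. The 4 are 6.25% of the members. They were Hnrnpm (log2 difference -0.13, SE 0.03, limma adjusted p = 0.0155), Hnrnpc (-0.12, SE 0.03, adjusted p = 0.0239), Hnrnph3 (-0.14, SE 0.04, adjusted p = 0.0347) and Prpf40b (-0.11, SE 0.04, adjusted p = 0.048). Hnrnph3 was at 51.4 to 59.4 RPM (median 55.6) in TG naive and 46.7 to 61.0 RPM (median 52.4) in TG crush libraries, and the groups overlapped. Prpf40b had medians of 41.6 and 39.4 RPM there. LOC100910795, a copy of Hnrnph3 on chromosome 20, held 28.2 to 38.4% as many reads and differed by -0.09 (SE 0.05, limma adjusted p = 0.212).

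Hnrnph3 and Prpf40b sat at the edge of the threshold. The call of Hnrnph3 ended without any 1 of 10 libraries (wt naive 197 and 201, wt crush 207, 209 and 210, TG naive 192 and 193, TG crush 214, 220 and 222; adjusted p 0.0526 to 0.0805), and that of Prpf40b without any 1 of 20 (adjusted p 0.05 to 0.0992), all but wt naive 196 and 200, TG naive 187, 188 and 192, and TG crush 219, 223 and 226. Without the 5 libraries over 20 RPM of Slc17a7, Hnrnpm kept its call and Snrpb gained one, while Hnrnpc had an adjusted p of 0.0802, Hnrnph3 of 0.135 and Prpf40b of 0.246. With a spiny neuron covariate Hnrnph3 (adjusted p = 0.0979) and Prpf40b (0.126) did not pass, nor did they without a minimum on the level (0.0536 and 0.0664), and Hnrnph3 had 0.0567 under median-of-ratios scaling. In the same average, 5 of 11 microglial, 4 of 10 astrocyte, 4 of 9 endothelial and pericyte and 1 of 10 oligodendrocyte markers were called lower and none higher, and 1 of 17 spiny neuron and 2 of 5 pituitary markers were called higher. The microglial markers, all 11 of them tested, summed to 443 to 664 RPM in wt naive, 461 to 541 in wt crush, 469 to 644 in TG naive and 439 to 665 in TG crush libraries. The astrocyte markers summed to 4470 to 6710, 4400 to 4870, 5060 to 5940 and 4330 to 6400 RPM in the same order, and the endothelial and pericyte markers to 413 to 541, 390 to 484, 448 to 547 and 378 to 550 RPM. The part of these cells in the members' values was not tested, and fewer cells of a type cannot be told apart from less RNA per cell in whole tissue.

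**Figure D4:**
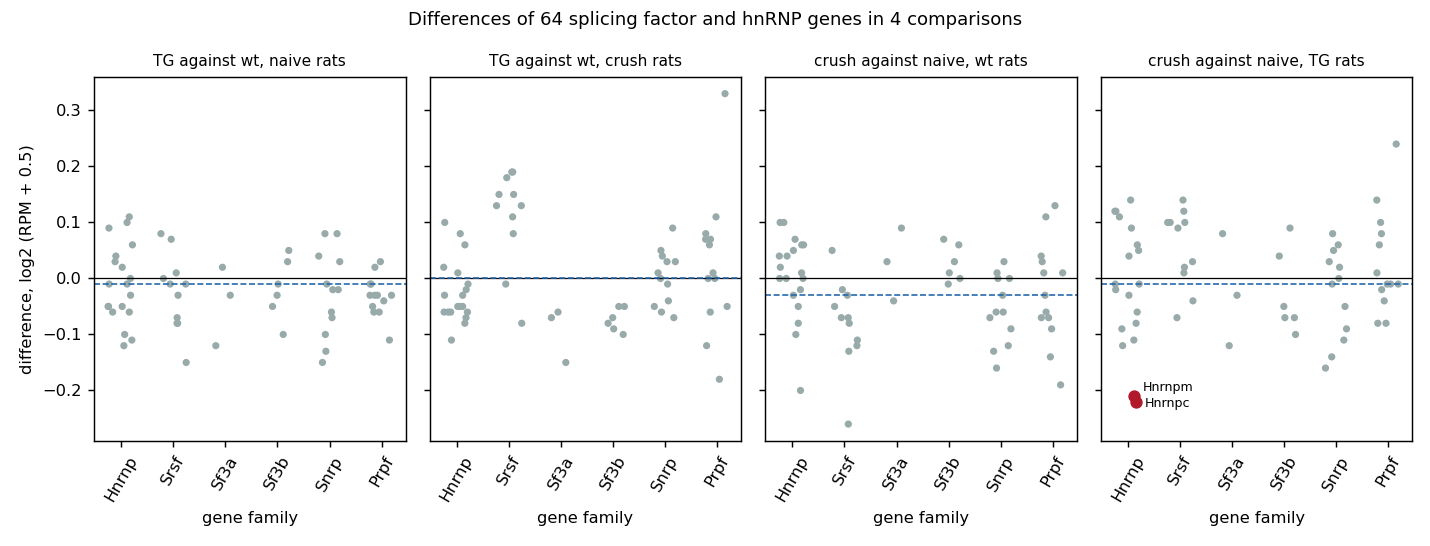
Log2 difference of each of the 64 members tested, by family, in 4 comparisons, with the median of all genes tested as a dashed line. Filled red points passed an adjusted p of 0.05 in limma: Hnrnpc (-0.22) and Hnrnpm (-0.21) in crush against naive TG rats.

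The test of whether genotype changes the response to the crush called no member, with 0.00549% of all genes called, while 7 of 64 members, 10.9%, and 7.49% of all genes had an unadjusted p under 0.05. The largest term belonged to Prpf39, at 0.44 (SE 0.14, 95% interval 0.16 to 0.72, limma adjusted p = 0.47): its difference after the crush was -0.19 (SE 0.10) in wt and 0.24 (SE 0.10) in TG rats, and neither passed. Srsf3 had a term of 0.18 (SE 0.06, adjusted p = 0.551) and Hnrnpc one of -0.19 (SE 0.07, adjusted p = 0.551). All 11 Srsf terms were above 0, as were 9758 of all 18222 genes tested, with a median of 0.15 against 0.01 over all genes, and none passed. Libraries moved many of these genes at once, so the 11 signs are not independent. TG crush replicate 220, the highest of its group in 7 of the 11 Srsf genes, enters each of these terms.

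Genes that act on or beside the members were counted from lists chosen for their function. The lists were drawn up with earlier results of these data known. Of their 182 tested rows, limma and limma-voom called none between genotypes, in wt rats after the crush or in the interaction. Between genotypes an unadjusted p under 0.05 was found for 10 rows in naive rats (5.49%, against 4.98% of all genes tested), 24 in crush rats (13.2% against 8.06%) and 13 in the average of both (7.14% against 5.09%). In wt rats after the crush it was found for 24 rows (13.2% against 20.8%) and in the interaction for 18 (9.89% against 7.49%). In TG rats after the crush, 5 genes rose and none fell, 2.75% of the rows, where 3.08% of all genes were called, 1.08% higher and 2.0% lower. From the SR-related proteins 2 of 25 rose, from the kinases and transport factors of SR proteins 1 of 11, and from the other splicing regulators 2 of 52. No gene passed among 49 further spliceosome genes, 13 LSm genes, 15 genes of SMN-dependent assembly or the exon junction and decay genes.

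Rbm3, a cold-inducible RNA-binding protein gene, had the largest difference of the 5. It was at 16.2 to 26.8 RPM (median 20.3) in TG naive and at 27.8 to 52.0 RPM (median 34.6) in TG crush libraries, without overlap (log2 difference 0.81, SE 0.11, limma adjusted p = 8.9e-05). In wt rats it was at 24.2 to 37.7 RPM (median 27.5) in naive and 32.5 to 36.4 RPM (median 33.0) in crush libraries (0.25, SE 0.11, adjusted p = 0.214). Its level in TG naive rats lay below that of wt naive rats by a log2 difference of -0.49 (SE 0.10, limma adjusted p = 0.129), while in crush rats the genotypes differed by 0.07 (SE 0.12). The interaction term of Rbm3 was 0.56 (SE 0.16, limma adjusted p = 0.405) and did not pass. Cirbp, its cold-inducible relative, differed by 0.15 (SE 0.10, adjusted p = 0.402) after the crush in TG rats.

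Tra2b, an SR-like activator of exons, had medians of 36.7 RPM in TG naive and 43.5 RPM in TG crush libraries, 5 of 6 crush libraries lying above all naive ones (log2 difference 0.25, SE 0.05, limma adjusted p = 0.00802). Clk4, a kinase that phosphorylates SR proteins, had medians of 18.7 and 23.9 RPM (0.33, SE 0.08, adjusted p = 0.017), while its relative Clk1 differed by 0.22 (SE 0.08, adjusted p = 0.149). Rbm39, a U2AF-related coactivator, differed by 0.23 (SE 0.05, adjusted p = 0.0112) and Luc7l2, a U1-associated SR-like protein, by 0.25 (SE 0.06, adjusted p = 0.0296). In wt rats after the crush Tra2b, Clk4, Rbm39 and Luc7l2 differed by 0.10, -0.11, 0.00 and -0.08, and none passed. Their interaction terms were 0.15, 0.44, 0.23 and 0.33 (limma adjusted p = 0.658, 0.348, 0.46 and 0.348). These data therefore do not show that these genes respond in TG rats alone. Between naive TG and naive wt rats Clk4 differed by -0.21 (SE 0.07, limma adjusted p = 0.769). With the 2 TG groups fitted alone, Tra2b had an adjusted p of 0.0588, Clk4 of 0.0755, Rbm39 of 0.102 and Luc7l2 of 0.107. Without TG crush replicate 220 those of Clk4 and Luc7l2 were 0.0678 and 0.0816, and the call of Luc7l2 also ended without any of 3 other libraries (adjusted p 0.0592, 0.0609 and 0.0595 without TG crush 222, TG naive 193 and TG naive 189). Without the 5 libraries over 20 RPM of Slc17a7, Clk4, Rbm39 and Luc7l2 had adjusted p-values of 0.0804, 0.0876 and 0.128.

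**Figure D5:**
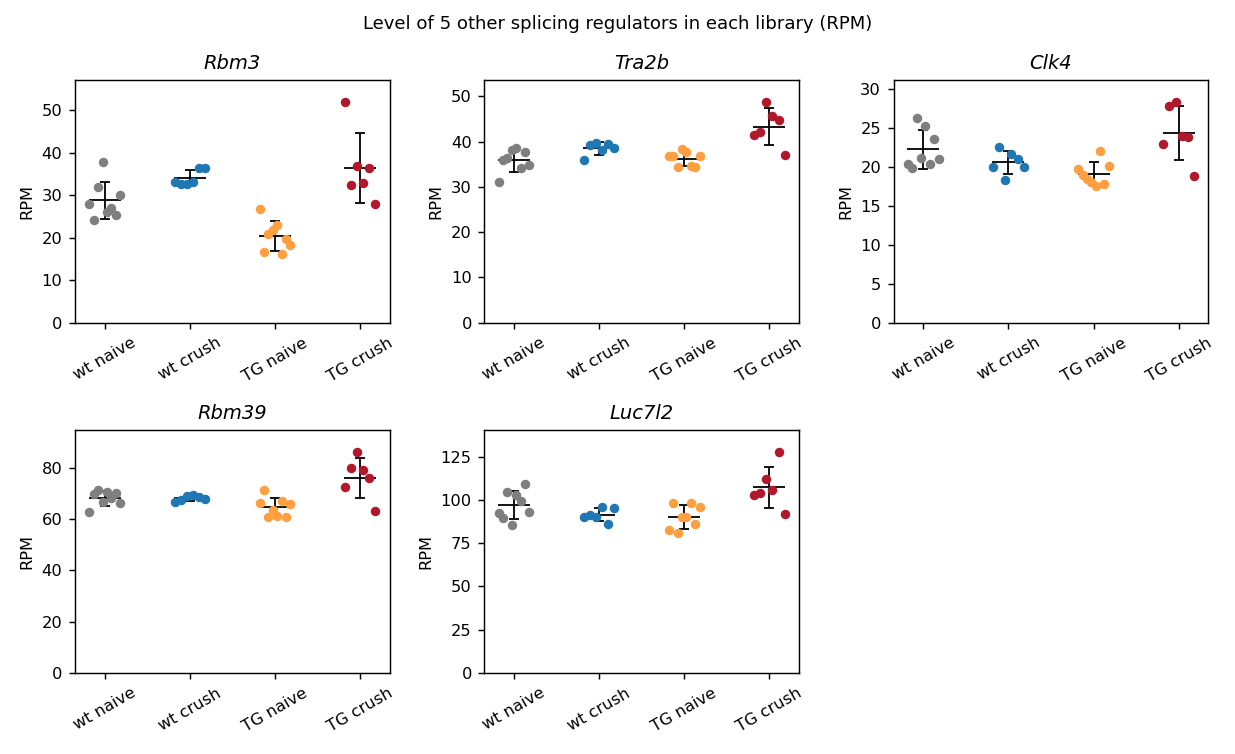
Level in RPM of the 5 called genes from the other lists in each library by group, with the group mean and SD in black and each axis starting at 0. Rbm3 in TG crush libraries (27.8 to 52.0 RPM) lies above all TG naive libraries (16.2 to 26.8 RPM).

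Averaged over both genotypes, 10.4% of the list rows were called, where 11.4% of all genes were. Of the rows 6.04% rose and 4.4% fell, against 3.03% and 8.42% of all genes. Tra2b (0.18, SE 0.04, limma adjusted p = 0.00387) and Bclaf1 (0.17, SE 0.04, adjusted p = 0.0161) rose among the SR-related proteins. Among the other regulators Rbm39, Rbm24, Rbm3 (0.53, SE 0.08, adjusted p = 0.000153) and Mbnl2, a muscleblind protein gene (0.24, SE 0.06, adjusted p = 0.0083) rose, and Khdrbs3 fell (-0.21, SE 0.05, adjusted p = 0.00786). Of 13 LSm genes 3 fell, Lsm7, Lsm11 of the U7 particle (-0.22, SE 0.06, adjusted p = 0.0221) and Lsm6 (-0.22, SE 0.07, adjusted p = 0.0279), and Lsm14b rose (0.15, SE 0.05, adjusted p = 0.0354). Of 49 further spliceosome genes Cdc40 (0.15, SE 0.05, adjusted p = 0.0432) and Dhx15 rose and Xab2 (-0.14, SE 0.04, adjusted p = 0.0194), Syf2 (-0.13, SE 0.04, adjusted p = 0.035) and Snrnp35 fell, and 1 gene each changed in the assembly list (Wdr77, 0.12, SE 0.04, adjusted p = 0.0377) and the decay list (Upf3a, -0.17, SE 0.05, adjusted p = 0.0412). Without the 5 libraries over 20 RPM of Slc17a7, Bclaf1, Mbnl2, Lsm6, Lsm14b, Xab2, Wdr77 and Upf3a did not pass (adjusted p 0.0518 to 0.226), and neither did Cdc40 (0.183) and Syf2 (0.179). Without single libraries the calls of Lsm6, Syf2, Wdr77, Lsm14b, Upf3a and Cdc40 ended in 4, 11, 12, 13, 17 and 19 of 28 fits (adjusted p 0.0508 to 0.0947), while those of Tra2b, Bclaf1, Rbm3, Mbnl2, Khdrbs3, Lsm11 and Xab2 held in all 28. With a spiny neuron covariate Xab2 (adjusted p = 0.051), Lsm11 (0.0567), Lsm6 (0.0772), Syf2 (0.0942), Lsm14b (0.0979), Cdc40 (0.11) and Upf3a (0.117) did not pass. Without a minimum on the level, Syf2, Lsm14b, Upf3a and Cdc40 did not pass (adjusted p 0.0511 to 0.0684), nor did Syf2 (0.0506) and Upf3a (0.0527) under median-of-ratios scaling.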

How the data were processed

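The 28 striatal libraries, made with a stranded mRNA kit, were sequenced single-end (75 nt) over 2 runs, per the labels' protocols. STAR 2.6.1a, featureCounts of Subread 1.6.3 and DESeq2 1.22.2 are named for Rnor_6.0, per the submitters' processing notes. The deposited table holds RPKM values, written by the authors with decimal commas, whose length is the gene span with introns (100% of genes). RPKM times length in kilobases gave RPM, and whole reads within a tolerance of 0.02 for 100% of values. Since levels are per span, genes are not compared in level.

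One limma fit (3.58.1, R 4.3.3) of log2 (RPM + 0.5) on the 4 groups used all libraries and 18222 genes of at least 0.5 RPM in at least 6 libraries, with variances that follow the mean, 7 contrasts and Benjamini-Hochberg adjustment over all genes, and was tested on simulated data. Members, gene lists and alternatives were chosen with earlier results of these data known. Genes were named when called (up to 12 per comparison), among the 3 of lowest p where fewer than 3 were called, by role, by extreme spread or as untested members, and up to 3 per other list. Prpf39 in TG rats after the crush, and Rbm39, Rbm24, Lsm7, Dhx15 and Snrnp35 in the average over genotypes, were named after their values were seen, as were members listed only for an alternative. Alternatives were pseudocounts of 0.1 and 2, the RPKM scale, other minima, other scalings, the compared groups alone, limma-voom, array weights, a spiny neuron covariate, and libraries left out. Figures used matplotlib 3.10.9 in Python 3.11.15.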

Additional observations from a re-analysis of the deposited data

Results flagged for a closer look

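Prpf8 stood apart in 1 library. In TG crush replicate 223 it was at 192 RPM, where the next TG crush library was at 247 RPM and the group's median was 253 RPM. The gap was 0.629 of the group's range, just over the critical value of 0.625 for 6 samples. That library had the highest mitochondrial share, 17.4%. Its oligodendrocyte and myelin markers summed to 35100 RPM, against 17800 to 24000 RPM in the other TG crush libraries. Its spiny neuron markers summed to 9380 RPM, against 11900 to 16500 RPM in the others. The part of that share and of the mix of cells in the value was not tested. In all, 104 groups of 27 members were examined, and chance gives such a gap in about 1 in 20.

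Srsf2 lay in opposite directions after the crush in the 2 genotypes, lower in wt rats and higher in TG rats, with a difference of 0.19 between the log2 changes. Every wt crush library lay below the mean of wt naive libraries and every TG crush library above that of TG naive ones, a pattern that was not itself tested. The interaction term in limma had an adjusted p of 0.612.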

How the results depend on the processing

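The counts of members called between genotypes and in the interaction stayed at 0 under every alternative run, with 0 to 0 over the 28 fits that each left out 1 library. In wt rats after the crush the count went from 0 to 2 with array weights (Hnrnph3 and Srsf9), and from 0 to 1 over the libraries left out, where 1 arose without wt naive replicate 196. In TG rats it went from 2 to 0 with the compared groups alone and to 4 with array weights, and ran from 2 to 6 over the libraries left out, with 6 without TG crush replicate 226. For the average of both genotypes it went from 4 to 2 without a minimum, to 12 with array weights, to 2 without the Slc17a7 libraries (Hnrnpm and Snrpb) and to 2 with the spiny neuron covariate (Hnrnpc and Hnrnpm), and ran from 2 to 7. It was 7 without TG crush replicate 226, and 2 without wt naive 197 or 201, wt crush 207, 209 or 210, TG naive 193, or TG crush 214, 220 or 222. Hnrnpc in wt rats after the crush turned to 0.01 under median-of-ratios scaling. Genes called in the whole table moved with the setting too: in TG rats from 562 to 123 with the compared groups alone, 181 without the Slc17a7 libraries, 1233 with the spiny neuron covariate and 1753 with array weights. Under median-of-ratios scaling the split of calls moved from 197 higher and 365 lower to 273 and 306 in TG rats, and from 552 and 1534 to 1022 and 1139 for the average. Hnrnpc and Hnrnpm in TG rats kept their calls in all 28 fits with a library left out and in the other 11 alternatives.

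Limits: the run of each library and the strand setting are not given in the sources used here. No paired analysis was possible because the labels share no replicate number between groups. An edgeR test was planned only for a deposited table of raw counts and was not run, and the whole reads computed from the RPKM were tested with limma-voom. The fits on the compared groups alone give no value for the averages and the interaction.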
